A study of Homo sapiens with 9 samples.

Results

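The cytosolic ribosomal protein genes were examined as one group of mRNAs after KDM4C silencing. They were chosen by symbol alone: every listed gene named RPL or RPS with a number, with or without a final A or X, together with RPLP0, RPLP1, RPLP2 and RPSA. This gave 77 of the 32906 listed genes, of which 46 encode proteins of the large (60S) subunit and 31 proteins of the small (40S) subunit. Pseudogenes and most paralogs carry other symbols and were kept apart.

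The study used Huh7, as the labels name it, an established human liver cancer line, and transfected it with 1 of 3 siRNAs through Lipofectamine RNAiMAX. Scramble is a control siRNA without a stated target, and Si-KDM4C#1 and Si-KDM4C#2 each target the mRNA of KDM4C, a histone lysine demethylase. All groups shared the cell line, the transfection and the collection of total RNA after 48 hours. Each group had 3 libraries, 9 in all, and the comparisons ask how silencing of KDM4C changed the transcriptome.

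A ribosome carries a single copy of most of its proteins, and in human cells each is usually made from a single active gene. The mRNAs of these genes are among the most abundant of a growing cell and typically begin with a C followed by a run of pyrimidines, the terminal oligopyrimidine (TOP) tract. Through this tract their translation follows growth signals that pass through the mTOR kinase and the RNA-binding protein LARP1. Many of the genes also carry small nucleolar RNAs (snoRNAs) in their introns, which guide the modification of ribosomal RNA.

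The deposited values were FPKM, fragments per kilobase of exon scaled to the mapped fragments of the library, so that levels of different genes can be set side by side per length. The libraries rested on 14597502 to 18058556 fragments, and a single ribosomal protein gene had between 49 and 45629 fragments in a library. The siRNA target itself lay at 4.57 to 4.88 FPKM in Scramble, 1.10 to 1.18 in Si-KDM4C#1 and 0.256 to 0.349 in Si-KDM4C#2, so that KDM4C was lower in all 6 knockdown libraries than in any Scramble library. Of 13 hepatocyte markers, 10 were listed, and all of these were under 1 FPKM in every library (highest value 0.248 FPKM), so the listed defining mRNAs of the labelled cell type were near 0. Of the 4 markers of the keratin-containing epithelial list, 3 were listed (EPCAM was not), and 1 of these was under 1 FPKM in every library. The listed markers summed to 330 to 353 FPKM in Scramble, 290 to 309 FPKM in Si-KDM4C#1 and 240 to 254 FPKM in Si-KDM4C#2. Lists for blood cells and endothelium stayed under 1 FPKM in sum. The fibroblast list summed to 15.4 to 18.9 FPKM, with 2 of its 4 markers under 1 FPKM in every library. The part of these differences in the results below was not tested.

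The first bases of the mRNAs past the fold limit with Si-KDM4C#1 that have an entry in the RefSeq table, of the most abundant member and of other TOP mRNAs are shown, because the TOP tract marks this class and the members differ in it. Where a gene had several annotated starts, a start with the tract was shown if there was any. Each line holds 6 bases before the start annotated by RefSeq (GRCh38.p14) and 22 bases from it on, 5′ to 3′ on the strand of the gene, with the pyrimidine run that begins exactly at the annotated start in capitals.
RPS12 (chr6:132814563-132814590, plus strand): tgaggcCTCTTTCCCTgccgccgccgag
RPL3 (chr22:39319602-39319629, minus strand): accggcCTCTaccggcgggatttgatgg
RPL11 (chr1:23691800-23691827, plus strand): cgctttCTCTTCCTgctctccatcatgg
RPS21 (chr20:62387097-62387124, plus strand): ctgcttCCTTTCTCTCTCgcgcgcggtg
RPS28 (chr19:8321490-8321517, plus strand): cacgtgactcctctccgccagaccgccg
RPL26 (chr17:8383172-8383199, minus strand): gtagttCTCTTCCCTTTTgcggccatca
RPL36 (chr19:5690289-5690316, plus strand): gccagcCCTTCCgccacggccgtctctg
RPL13A (chr19:49487602-49487629, plus strand): ctcctcCTTTTCCaagcggctgccgaag
NPM1 (chr5:171387843-171387870, plus strand): tgcgtcCTTTCCCTggtgtgattccgtc
NAP1L1 (chr12:76084664-76084691, minus strand): ttgggtCTTTTTTagcgccatctgctcg

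Of the 77 genes, 62 had a promoter entry in the RefSeq table as used and 15 had none, RPL23A among them. Entries on chromosome 8, where RPL7, RPL8, RPL30 and RPS20 of these 15 lie, were removed from the table before the search. A C followed by at least 4 pyrimidines stood exactly at an annotated start of 46 of the 62 genes (74.2%). The share was 5.14% of all 27305 genes in the table and 7.58% of the 9172 tested genes in it. A gene was counted if any of its entries matched. By entry, 46 of 77 matched (59.7%), against 4.07% of all 35116 entries and 5.36% of the 13245 entries of tested genes. The search was made on the strand of the gene. The run reached 12 bases in RPS21 and RPL26, 10 bases in RPS12 and 8 bases in RPL11, whereas the 4 bases of RPL3 fell short of the definition and RPS28 had no pyrimidine at the annotated start shown. A match is a description of these letters and depends on the annotated start. NPM1 and NAP1L1 encode a nucleolar and a nucleosome assembly protein, and they are shown because they belong to a list of other TOP mRNAs and fell with Si-KDM4C#1.

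All 77 mRNAs were detected in every library, and their levels per length spanned a wide range. In the Scramble libraries the median gene was at 203 FPKM, against 5.54 FPKM for the median of all 14363 genes tested. The range ran from 1.78 FPKM (RPS10) to 886 FPKM (RPL13A), with 58 genes above 100 FPKM and 4 below 10 FPKM. Large-subunit genes had a median of 175 FPKM and small-subunit genes one of 239 FPKM. Together the 77 genes took 6.26 to 6.33% of all FPKM in Scramble, 7.12 to 7.37% with Si-KDM4C#1 and 6.41 to 6.55% with Si-KDM4C#2. The share was therefore higher in each Si-KDM4C#1 library than in the other 6. Counted in fragments, without division by length, the mean share was 5.54% in Scramble, 6.23% in Si-KDM4C#1 and 5.41% in Si-KDM4C#2, so that the order of Scramble and Si-KDM4C#2 depends on the scale.

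The genes with the highest mean over all libraries were RPL13A, RPL8 and RPL19. RPL13A, a large-subunit protein that also takes part in translational silencing, was at 867, 869 and 924 FPKM in Scramble, 961, 992 and 994 FPKM in Si-KDM4C#1 and 993, 1021 and 997 FPKM in Si-KDM4C#2. It stood above Scramble in all knockdown libraries. The log2 fold changes against Scramble were 0.15 with Si-KDM4C#1 and 0.18 with Si-KDM4C#2, but 0.012 and 0.0077 after an adjustment for the GC content of the genes. Under quantile normalization they were -0.064 and 0.041. In the Scramble libraries the next genes in order were RPL19 (824 ± 17.1 FPKM, SD, n = 3) and RPS12 (808 ± 26.5 FPKM), which did not differ beyond their spread. Among the lowest genes were RPS10, RPL36A and RPL17. RPS10 and RPL17 share 39.4% and 35.3% of their exon bases with other annotated genes, namely the read-through genes RPS10-NUDT3 and RPL17-C18orf32 and several small RNAs, and their low values are uncertain for that reason. RPL10 was the only other gene with an overlap above 30% (55.5%). RPL36A shares 8.40% with the read-through gene RPL36A-HNRNPH2. In Scramble its pseudogenes summed to 5.49 FPKM, above the 2.99 FPKM of RPL36A, so that its low value is uncertain too. Those of RPS10 summed to 10.2 FPKM, above the 1.78 FPKM of the gene.

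**Figure D1:**
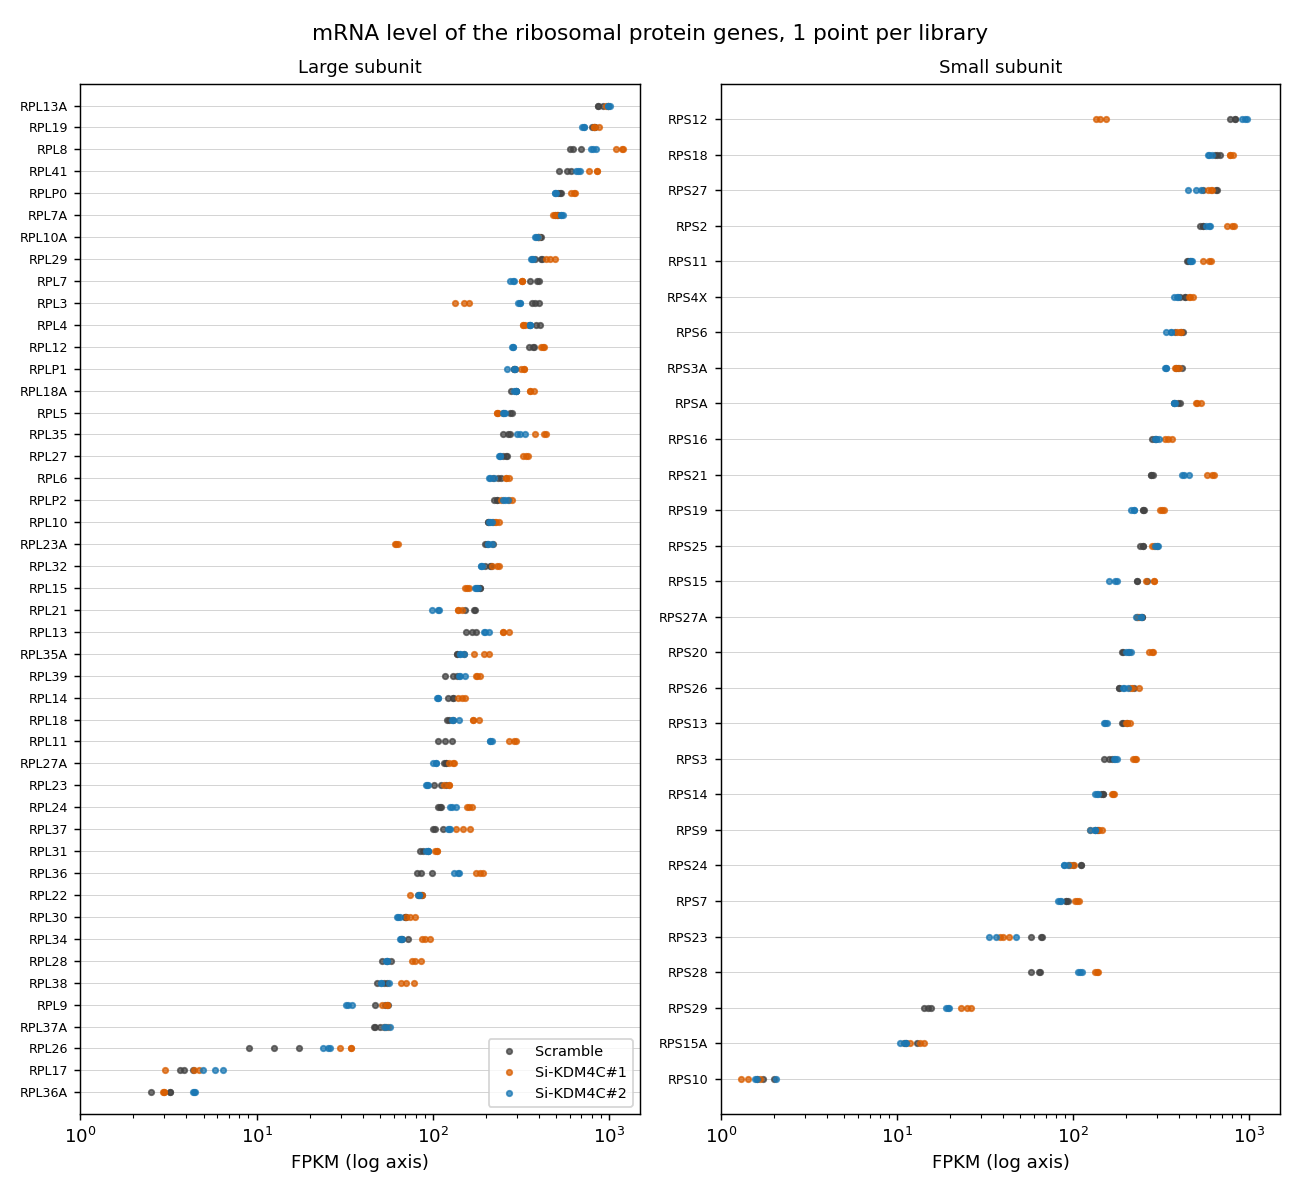
mRNA level of large-subunit (left) and small-subunit genes (right), without those not reported here, in FPKM on a log axis, with 1 point per library and genes in the order of their Scramble mean. Most genes keep the libraries of the 3 groups close together, whereas RPS12, RPL3 and RPL23A lie far lower in the 3 Si-KDM4C#1 libraries.

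With Si-KDM4C#1 most ribosomal protein mRNAs were modestly higher than with Scramble, and 3 of them were much lower. At an FDR under 0.05 (limma-trend over all 14363 genes, Benjamini-Hochberg), 48 of the 77 rose and 11 fell, while 18 did not pass. Among all genes tested, 31.7% rose and 33.9% fell in this comparison, 65.7% together. The median log2 fold change of the 77 mRNAs was 0.19, against -0.03 over all genes tested. The limit of a more than 2-fold change, which the study also uses, was passed by 8 of the 77 (8.87% of all genes tested). Of these, 5 were higher (4.04% of all genes) and 3 were lower (4.83% of all genes). Fold changes are on the log2(FPKM + 1) scale, which makes the change of weakly expressed genes smaller. A lower level in each cell and fewer cells with the mRNA cannot be told apart in such bulk samples. The labels do not say whether the libraries of a group came from separate cultures, so that the p-values measure the spread between these libraries only.

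RPS12, a protein of the beak of the small subunit, changed most. Its mRNA was at 822, 824 and 777 FPKM in Scramble, 153, 141 and 134 FPKM in Si-KDM4C#1 and 963, 942 and 906 FPKM in Si-KDM4C#2. The Si-KDM4C#1 libraries lay far below all others, and the Si-KDM4C#2 libraries lay above all Scramble libraries. The mean was 5.66 times lower with Si-KDM4C#1 (log2 fold change -2.50, standard error 0.0519, limma adjusted p = 2.48e-09). With Si-KDM4C#2 it rose to 1.16 times the Scramble level (log2 fold change 0.21, limma adjusted p = 0.00578), a call that was lost under quantile normalization (log2 fold change 0.03). In the order of levels RPS12 stood at place 3 of 77 in Scramble, place 53 in Si-KDM4C#1 and place 2 in Si-KDM4C#2. RPS12 lies at chr6:132814441-132817564 on the plus strand (GRCh38), shares no exon base with another gene and was counted with 9522 to 10219 fragments in the Scramble and 1577 to 2122 in the Si-KDM4C#1 libraries.

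RPL23A, which sits near the exit of the peptide tunnel, was at 221, 199 and 205 FPKM in Scramble, 61.1, 63.4 and 62.2 FPKM in Si-KDM4C#1 and 205, 206 and 216 FPKM in Si-KDM4C#2. Again only the Si-KDM4C#1 libraries stood apart, and the other groups overlapped. The mean was 3.35 times lower with Si-KDM4C#1 (log2 fold change -1.73, standard error 0.043, limma adjusted p = 5.77e-09), whereas with Si-KDM4C#2 the log2 fold change was 0.01 (limma adjusted p = 0.906). RPL3, a protein close to the peptidyl transferase centre, was at 366, 382 and 404 FPKM in Scramble, 162, 151 and 134 FPKM in Si-KDM4C#1 and 315, 314 and 305 FPKM in Si-KDM4C#2. The 3 groups did not overlap, with Scramble highest. RPL3 fell with both siRNAs, by 1.36 on the log2 scale with Si-KDM4C#1 (standard error 0.0657, limma adjusted p = 1.31e-07) and by 0.30 with Si-KDM4C#2 (limma adjusted p = 0.00312). RPL23A lies at chr17:28719393-28724359 on the plus strand and RPL3 at chr22:39312882-39320389 on the minus strand. They share 12.4% and 3.24% of their exon bases with other annotated genes.

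The 5 mRNAs that rose past the fold limit with Si-KDM4C#1 were RPL11, RPS21, RPS28, RPL26 and RPL36, and all of them also rose with Si-KDM4C#2, to a level in between. RPL11, which binds 5S rRNA together with RPL5, was at 108, 118 and 129 FPKM in Scramble, 270.1, 299 and 289 FPKM in Si-KDM4C#1 and 216, 212 and 212 FPKM in Si-KDM4C#2. Its mean was 2.42 times the Scramble level with Si-KDM4C#1 (log2 fold change 1.27, standard error 0.0626, limma adjusted p = 1.52e-07) and 1.80 times with Si-KDM4C#2 (log2 fold change 0.85, limma adjusted p = 3.11e-06). RPS21, a small-subunit protein, was at 277, 283 and 274 FPKM in Scramble, 574, 626 and 609.9 FPKM in Si-KDM4C#1 and 451, 425 and 413 FPKM in Si-KDM4C#2. For both genes the 3 groups were fully separated, in the order Scramble, Si-KDM4C#2, Si-KDM4C#1. The log2 fold changes of RPS21 were 1.11 and 0.63 (limma adjusted p = 4.42e-08 and 2.5e-06).

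RPS28, which lies near the exit of the mRNA channel, was at 64.2, 63.4 and 57.8 FPKM in Scramble, 137, 133 and 135 FPKM in Si-KDM4C#1 and 112, 109 and 107 FPKM in Si-KDM4C#2. RPL36 of the large subunit was at 99.3, 86.1 and 81.6 FPKM, 175, 194 and 185 FPKM, and 141, 138 and 133 FPKM in the same order of groups. Both kept the order Scramble, Si-KDM4C#2, Si-KDM4C#1 without overlap, with log2 fold changes against Scramble of 1.12 and 0.81 for RPS28 and of 1.05 and 0.63 for RPL36 (limma adjusted p from 4.15e-08 to 4.11e-05). After an adjustment for the GC content of the genes, the log2 fold change with Si-KDM4C#1 was 0.97 for RPS28 and 0.77 for RPL36 (with Si-KDM4C#2, 0.28 for RPL36), and after quantile normalization it was 0.93 and 0.86, below the fold limit in each case. RPL36 was also just below it without Scramble replicate 3 (0.99). RPL26, at the tunnel exit, was far weaker and more variable: 17.3, 12.5 and 9.08 FPKM in Scramble, 29.6, 34.5 and 34.3 FPKM in Si-KDM4C#1 and 25.6, 26.1 and 23.8 FPKM in Si-KDM4C#2. Its knockdown libraries all lay above the Scramble libraries, and the log2 fold changes were 1.31 and 0.95 (standard error 0.175, limma adjusted p = 0.000108 and 0.00119). The difference of RPL26 between the siRNAs was not called (log2 difference -0.37, limma adjusted p = 0.0939). RPS28, RPL36 and RPL26 share 21.4%, 19.5% and 14.3% of their exon bases with other annotated genes, and RPL11 and RPS21 share none. The part of this overlap in the changes was not tested.

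**Figure D2:**
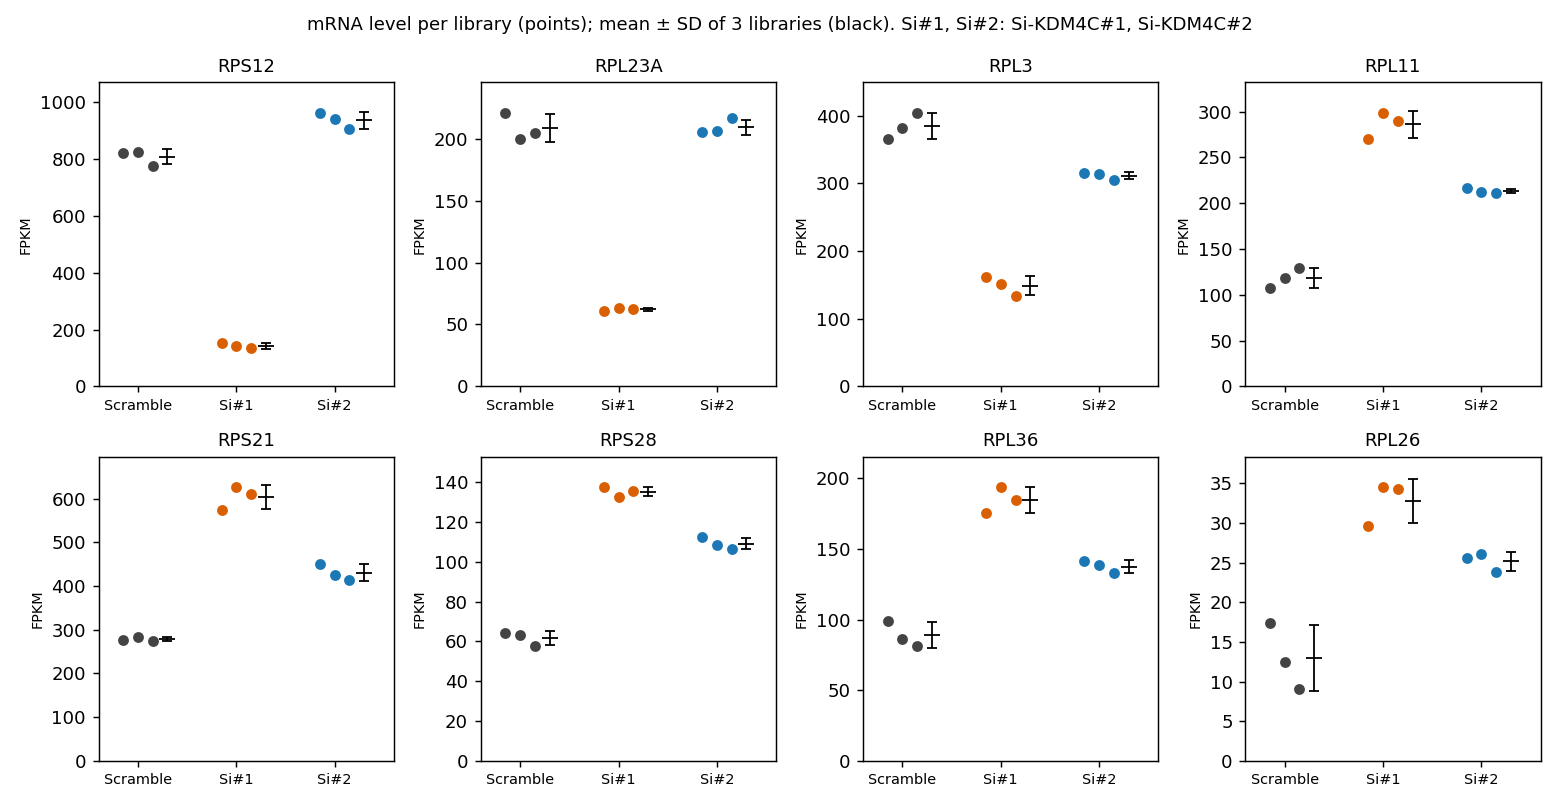
FPKM in each of the 9 libraries (points) with the mean ± SD of the 3 libraries of a group (black) for the 8 genes past both limits with Si-KDM4C#1. RPS12, RPL23A and RPL3 are lowest with Si-KDM4C#1, while the other 5 are highest with Si-KDM4C#1 and intermediate with Si-KDM4C#2.

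Proteins of the large subunit were considered next by role. With Si-KDM4C#1, 30 of the 46 large-subunit mRNAs rose and 7 fell (31.7% and 33.9% of all genes tested), with a median log2 fold change of 0.19. The stalk proteins RPLP0, RPLP1 and RPLP2, which recruit the elongation factors, all rose with Si-KDM4C#1, by log2 fold changes of 0.25, 0.17 and 0.21. With Si-KDM4C#2, RPLP2 rose (0.17) and RPLP0 fell (-0.09, limma adjusted p = 0.0488), whereas RPLP1 had a value of -0.04 that did not pass. The call of RPLP0 with Si-KDM4C#2 was lost without Scramble replicate 2 or 3, Si-KDM4C#1 replicate 1 or any Si-KDM4C#2 library (-0.09 to -0.07) and with equal totals of the other genes (-0.041), and that of RPLP2 without Scramble replicate 1 or Si-KDM4C#2 replicate 1 (0.15 each), under median-ratio scaling (0.12), in limma voom (0.11) and after an adjustment for GC content (-0.030). With Si-KDM4C#1 the call of RPLP1 was lost under quantile normalization (0.030) and that of RPLP2 there (0.12) and after the GC adjustment (0.047). RPL12, at the base of the stalk, was at 351, 373 and 377 FPKM in Scramble, 410.0, 423 and 427 FPKM in Si-KDM4C#1 and 287, 284 and 283 FPKM in Si-KDM4C#2, so that the siRNAs moved it in opposite directions (log2 fold changes 0.20 and -0.36).

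RPL5 and RPL11 form a particle with 5S rRNA that also binds MDM2, the ubiquitin ligase of p53, and their mRNA levels were set against each other. RPL5 was at 250.0, 276 and 281 FPKM in Scramble, 231, 236 and 233 FPKM in Si-KDM4C#1 and 258, 255 and 252 FPKM in Si-KDM4C#2. It fell with Si-KDM4C#1 (log2 fold change -0.20, limma adjusted p = 0.00255) and had a value of -0.08 with Si-KDM4C#2 (limma adjusted p = 0.169), which passed without Scramble replicate 1 (-0.13) and in limma voom (-0.14). The call with Si-KDM4C#1 was lost under median-ratio scaling (-0.12) and after the GC adjustment (-0.018). The ratio of the RPL5 to the RPL11 level per length was 2.28 ± 0.0891 in Scramble, 0.817 ± 0.033 in Si-KDM4C#1 and 1.19 ± 0.00689 in Si-KDM4C#2 (SD, n = 3). The ratio thus lay lower in every knockdown library than in any Scramble library and lowest with Si-KDM4C#1.

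Among other large-subunit genes, RPL8, next to the peptidyl transferase centre, rose strongly on a high level. It was at 697, 628 and 604 FPKM in Scramble, 1094, 1199.8 and 1194 FPKM in Si-KDM4C#1 and 849.9, 814 and 790.1 FPKM in Si-KDM4C#2, and with Si-KDM4C#1 it was the most abundant of the 77 mRNAs. Its log2 fold changes were 0.85 and 0.35 (limma adjusted p = 1.31e-06 and 0.00075), and the call with Si-KDM4C#2 was lost after the GC adjustment (0.076). The very small proteins RPL41, at the interface of the subunits, and RPL39, in the wall of the tunnel, also rose with both siRNAs, RPL41 from 569 ± 43.5 FPKM to 829 ± 48.3 and 670.0 ± 15.6 FPKM, and RPL39 from 128 ± 10.2 FPKM to 180.4 ± 4.71 and 145 ± 5.80 FPKM (SD, n = 3). The call of RPL39 with Si-KDM4C#2 was lost without Scramble replicate 3 (0.12), without Si-KDM4C#2 replicate 1 (0.15) and under quantile normalization (0.062) or median-ratio scaling (0.13), and that of RPL41 under quantile normalization (0.16). RPL10, which joins the large subunit late, had small differences (log2 fold changes 0.13 and 0.01), of which that with Si-KDM4C#1 passed (limma adjusted p = 0.0142) and was lost without Scramble replicate 2 or Si-KDM4C#1 replicate 3 (0.11 each), after the GC adjustment (0.029) and under quantile normalization (-0.014). RPL19 was at 805 to 839 FPKM in Scramble, 826 to 880 FPKM in Si-KDM4C#1 and 709 to 721 FPKM in Si-KDM4C#2, and fell with Si-KDM4C#2 (log2 fold change -0.20).

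Of the 31 small-subunit mRNAs, 18 rose and 4 fell with Si-KDM4C#1 (31.7% and 33.9% of all genes tested), with a median log2 fold change of 0.19. RPS23, which lines the decoding centre, was at 57.5, 66.2 and 65.4 FPKM in Scramble, 38.3, 39.7 and 43.1 FPKM in Si-KDM4C#1 and 33.0, 36.2 and 47.0 FPKM in Si-KDM4C#2. It was lower in all knockdown libraries, and the siRNA groups overlapped (log2 fold changes -0.63 and -0.70, limma adjusted p = 0.000859 and 0.000542). RPSA, which binds on the outer face of the small subunit, rose from 390.4 ± 14.0 to 511 ± 19.2 FPKM (SD, n = 3) with Si-KDM4C#1 (log2 fold change 0.39) and was at 375 ± 3.01 FPKM in Si-KDM4C#2 (log2 fold change -0.06, not called). RPS6, the substrate of the S6 kinases, was at 375, 421 and 411 FPKM in Scramble, 389, 408 and 405 FPKM in Si-KDM4C#1 and 335, 357 and 360.2 FPKM in Si-KDM4C#2. It fell with Si-KDM4C#2 (log2 fold change -0.20, limma adjusted p = 0.0071), and its difference with Si-KDM4C#1 was within the spread. RPS4X, encoded on the X chromosome, rose with Si-KDM4C#1 (0.14) and fell with Si-KDM4C#2 (-0.13). The first call was lost under quantile normalization (0.022), and the second after the GC adjustment (-0.12), with equal totals of the other genes (-0.086) and without Scramble replicate 2 or 3 or Si-KDM4C#2 replicate 3 (-0.12 to -0.11). RPS26, at the exit of the mRNA channel, did not pass with either siRNA (log2 fold changes 0.18 and 0.02), although the value with Si-KDM4C#1 passed without Scramble replicate 3 (0.27).

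**Figure D3:**
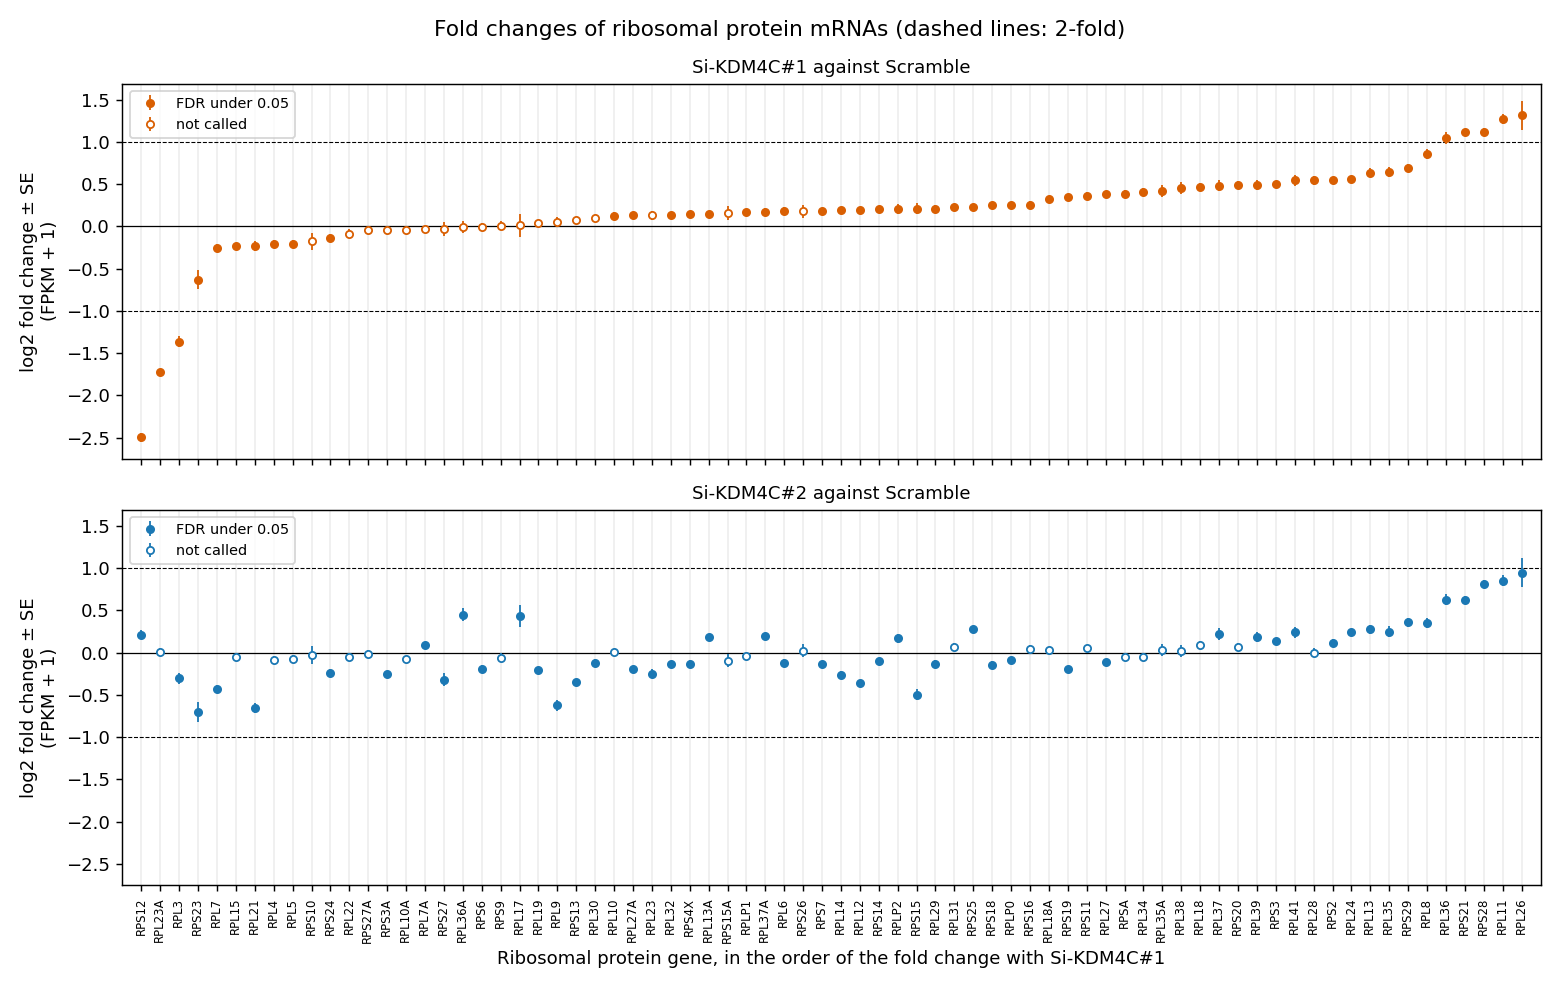
log2 fold change ± standard error of the ribosomal protein mRNAs, without those not reported here, with Si-KDM4C#1 (top) and Si-KDM4C#2 (bottom) against Scramble, in the order of the upper panel, with filled points for an FDR under 0.05 and dashed lines at a 2-fold change. The upper panel runs from -2.50 (RPS12) to 1.31 (RPL26), and in the lower panel no point passes the dashed lines.

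With Si-KDM4C#2 the ribosomal protein mRNAs were split between small rises and small falls. At an FDR under 0.05, 24 of the 77 rose and 29 fell, and 24 did not pass (34.4% and 25.0% of all genes tested rose and fell, 59.4% together). The median log2 fold change was -0.04, against 0.06 over all genes tested. None of the 77 passed the fold limit in limma-trend and none of the 70 that could be run in limma voom, against 4.89% of all genes tested in limma-trend (2.6% higher and 2.3% lower). Without Scramble replicate 1, RPL26 passed the fold limit with a log2 fold change of 1.16. The highest values were those of RPL26, RPL11, RPS28 and RPL36. The lowest were RPS23, RPL21, RPL9 and RPS15, with log2 fold changes of -0.70, -0.65, -0.62 and -0.50.

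RPL21 was at 152, 172 and 174 FPKM in Scramble, 139, 139.6 and 146 FPKM in Si-KDM4C#1 and 98.7, 109 and 107 FPKM in Si-KDM4C#2. Its levels lay in the descending order Scramble, Si-KDM4C#1, Si-KDM4C#2 without overlap. The call of RPL21 with Si-KDM4C#1 (log2 fold change -0.23) was lost under median-ratio scaling (-0.15) and after the GC adjustment (-0.082). RPL9 was at 53.5, 55.9 and 46.9 FPKM, 55.4, 51.6 and 55.0 FPKM, and 32.3, 33.1 and 34.7 FPKM in the same order of groups. Here only the Si-KDM4C#2 libraries stood apart (limma adjusted p = 2.38e-05). RPS15, in the head of the small subunit, was at 231, 229.8 and 260.4 FPKM in Scramble, 286, 258 and 288 FPKM in Si-KDM4C#1 and 158, 173 and 177 FPKM in Si-KDM4C#2. It fell with Si-KDM4C#2 (limma adjusted p = 0.000134) and rose slightly with Si-KDM4C#1, with a log2 fold change of 0.21 that turned to -0.04 after adjustment for GC content and was not called without Scramble replicate 1 or 2 or Si-KDM4C#1 replicate 1 or 3 (0.18 each) or under quantile normalization (0.14). Of the low genes, RPL36A and RPL17 rose with Si-KDM4C#2 by log2 fold changes of 0.45 and 0.43, the latter lost without Scramble replicate 3 (0.39) and without Si-KDM4C#2 replicate 1 (0.36), and RPS10 stayed between 1.29 and 2.05 FPKM in all 9 libraries without passing.

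When the siRNAs were compared with each other, the mRNAs were mostly lower with Si-KDM4C#2. In this direct comparison 54 of the 77 were lower and 9 higher with Si-KDM4C#2 than with Si-KDM4C#1, and 14 did not pass (26.5% and 35.9% of all genes tested were lower and higher). The median log2 difference was -0.29, against 0.08 over all genes tested. Past the fold limit were 3 of the 77 (6.91% of all genes tested, with 4.41% higher and 2.49% lower): RPS12 (log2 difference 2.71, limma adjusted p = 2.12e-09), RPL23A (1.73, limma adjusted p = 5.79e-09) and RPL3 (1.06, limma adjusted p = 7.9e-07), all higher with Si-KDM4C#2. RPL3 fell below the fold limit without Si-KDM4C#1 replicate 3 (0.99), under median-ratio scaling (0.93) and in limma voom (0.94). The most negative differences were those of RPS15 (-0.71), RPL9 (-0.68), RPL12 (-0.56) and RPL28 (-0.55). RPL28, a large-subunit protein, was at 55.0 ± 3.38 FPKM in Scramble, 80.8 ± 4.65 FPKM in Si-KDM4C#1 and 54.8 ± 0.481 FPKM in Si-KDM4C#2 (SD, n = 3).

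The comparisons against Scramble share the Scramble libraries, so that their calls are not independent of each other and are given here side by side only. The largest class was called higher with both siRNAs, 20 genes, among them RPL8, RPL11, RPL26, RPL36, RPL41, RPS21 and RPS28. Called lower with both were 6, among them RPL3, RPL7, RPL21, RPS23 and RPS24. A further 15 passed as higher under Si-KDM4C#1 but as lower under Si-KDM4C#2, and RPS12 alone passed the other way round. Among the 15 were RPL6, RPL12, RPL14, RPL27, RPL29, RPL32, RPLP0, RPS4X, RPS14, RPS15, RPS18 and RPS19. Called with Si-KDM4C#1 only were 13 as higher, among them RPL10, RPL28, RPLP1 and RPSA, and 4 as lower (RPL4, RPL5, RPL15 and RPL23A). Called with Si-KDM4C#2 only were 3 as higher (RPL7A, RPL17 and RPL36A) and 8 as lower, among them RPL9, RPL19, RPS6 and RPS27. The remaining 7 were called with neither. The shares of all genes tested in these classes were not counted, so no class can be read as particular to these genes. Several of the calls were lost in other fits, as described for RPLP0, RPS4X and RPS15.

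The members were also divided by the TOP tract described above. Of the 46 genes with the tract, 32 rose and 4 fell with Si-KDM4C#1 (median log2 fold change 0.21), and of the 16 without it, 8 rose and 3 fell (median 0.14), against 31.7% and 33.9% of all genes tested. With Si-KDM4C#2, 17 genes with the tract rose and 15 fell (median 0.0013), and 3 genes without it rose and 9 fell (median -0.12), against 34.4% and 25.0% of all genes tested. No difference between these classes was tested.

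The changes were uneven among the genes. Expressed relative to the Scramble mean, the interquartile range of the 77 log2 levels was 0.0488 to 0.0882 in the Scramble libraries, 0.38 to 0.439 with Si-KDM4C#1 and 0.314 to 0.325 with Si-KDM4C#2. The relative amounts of the mRNAs therefore differed more from the Scramble mean in each knockdown library than in any Scramble library, which are the libraries that form this mean. The summed FPKM of the 77 genes came to 19212 ± 281 in Scramble (SD, n = 3), to 21665 ± 569 in Si-KDM4C#1 and to 19145 ± 159 in Si-KDM4C#2. The large-subunit sum was 10983 ± 118, 12688 ± 366 and 11064 ± 106 FPKM, and the small-subunit sum 8229 ± 164, 8977 ± 212 and 8080.2 ± 69.0 FPKM. Both sums were higher with Si-KDM4C#1 than in any other library.

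Genes that host snoRNAs in their introns were counted separately. By GENCODE release 29, 28 of the 77 contain a snoRNA on the same strand, among them RPS12 (SNORA33, SNORD100 and SNORD101), RPL23A (SNORD42A, SNORD42B, SNORD4A and SNORD4B) and RPL3 (SNORD43, SNORD83A and SNORD83B). With Si-KDM4C#1, 15 of the 28 host mRNAs rose and 7 fell (median log2 fold change 0.13), whereas 33 of the other 49 rose and 4 fell (median 0.21). Among all genes tested, 31.7% rose and 33.9% fell. The 3 falls past the fold limit were all hosts, and none of the 5 rises past it was (4.83% and 4.04% of all genes tested). With Si-KDM4C#2, 10 hosts rose and 10 fell, against 14 and 19 of the other genes (34.4% and 25.0% of all genes tested). The host mRNAs RPL13A and RPL7A, each with 4 such snoRNAs, had log2 fold changes of 0.15 and -0.03 with Si-KDM4C#1. No difference between hosts and other genes was tested.

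Mutations in 20 of the 77 genes are linked to Diamond-Blackfan anaemia, an inherited failure of red cell production. Of these, 12 rose and 3 fell with Si-KDM4C#1 (RPL5, RPL15 and RPS24 fell), and 6 rose and 6 fell with Si-KDM4C#2. Over all genes tested, 31.7% rose and 33.9% fell with Si-KDM4C#1, and 34.4% rose and 25.0% fell with Si-KDM4C#2, so that the counts with Si-KDM4C#2 lay near this background. The median log2 fold changes were 0.29 and -0.00227. RPS19, the gene first linked to the disease, was at 249 ± 2.51 FPKM in Scramble, 319 ± 7.96 FPKM in Si-KDM4C#1 and 218 ± 5.17 FPKM in Si-KDM4C#2 (SD, n = 3), with log2 fold changes of 0.35 and -0.19, both called. RPS19 falls outside the rule for named genes and was chosen as the best-known gene of this list.

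Processed pseudogenes share sequence with these genes, and reads could be divided between them. Of the 77 genes, 70 had at least 1 listed pseudogene, 533 in all, of which 112 passed the filter on low values. Of those 112, 28 rose and 25 fell with Si-KDM4C#1, and 17 rose and 25 fell with Si-KDM4C#2, against 31.7% and 33.9%, and 34.4% and 25.0%, of all genes tested. The pseudogenes summed to 5120 to 5145 FPKM in Scramble, 5912 to 6546 FPKM in Si-KDM4C#1 and 5316 to 5487 FPKM in Si-KDM4C#2. The listing of RPS28P7 alone was at 1549, 1393 and 1557 FPKM in Scramble, far above RPS28 itself, and at 1558, 1835 and 1951 FPKM in Si-KDM4C#1. With their fragments counted together, scaled to the library total, RPS28 and RPS28P7 rose 1.48 times with Si-KDM4C#1 in place of 2.19 times for RPS28 alone, so that the size of its change is uncertain. Pseudogenes also summed above the gene itself elsewhere. For RPL9 their mean sums were 367, 463 and 249 FPKM in Scramble, Si-KDM4C#1 and Si-KDM4C#2. For RPL39 they were 483, 954 and 748 FPKM, and for RPL10 490, 484 and 431 FPKM. The levels and changes of such genes may depend on how reads were divided, which was not tested. For RPS12, RPL23A and RPL3 the joint value with all their pseudogenes was 5.61, 3.03 and 2.55 times lower with Si-KDM4C#1, near the value of the gene alone. With Si-KDM4C#1, RPL3P4 moved like RPL3, from 114 ± 16.3 to 61.9 ± 5.59 FPKM (SD, n = 3). With Si-KDM4C#2 the pseudogenes of RPL3 together were at a mean of 129 FPKM, against 115 FPKM in Scramble, whereas RPL3 fell. RPL11, RPS21 and RPL36 had pseudogene counts near 0, and their joint values rose 2.42, 2.17 and 2.07 times. For RPL26 the joint value rose 2.13 times with Si-KDM4C#1 in place of 2.53 times for the gene alone.

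The GC content of the 77 genes had a median of 49.9%, near that of all genes tested (49.0%). Across the 77 genes, which are not independent replicates, the log2 fold change with Si-KDM4C#1 had a Pearson correlation of 0.19 and a Spearman correlation of 0.30 with GC content, against 0.33 for both across 14343 genes tested. With Si-KDM4C#2 the Pearson values were 0.20 for the members and 0.31 for all genes, and the Spearman values 0.19 and 0.32. The points share the 9 libraries. RPL36 had the highest GC content of the group (63.5%) and was also the gene most changed by the adjustment among the 8 past the fold limit.

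**Figure D4:**
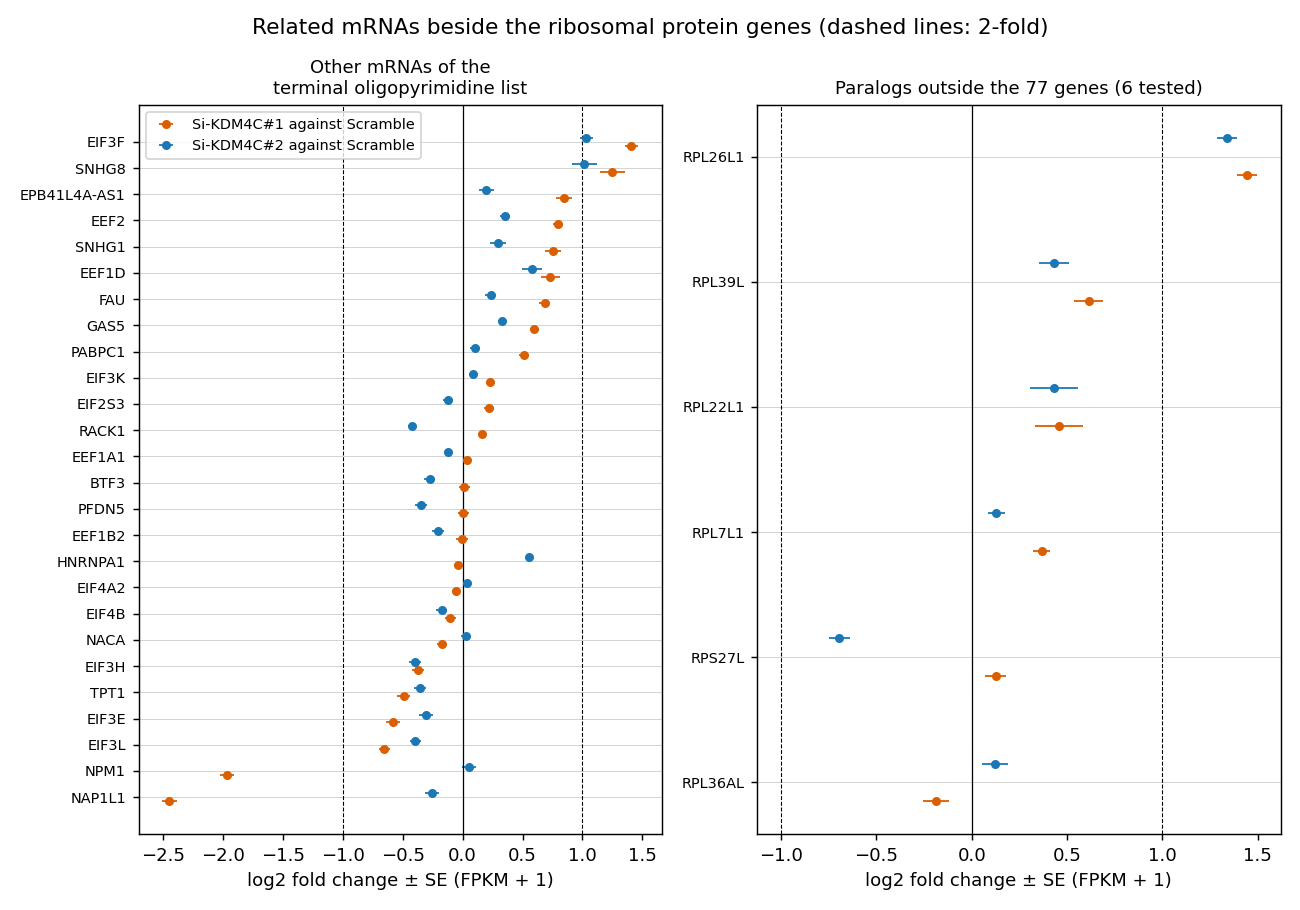
log2 fold change ± standard error with Si-KDM4C#1 and Si-KDM4C#2 against Scramble for other mRNAs of the TOP list, without those not reported here (left), and 6 paralogs (right), with dashed lines at a 2-fold change. NAP1L1 and NPM1 lie far to the left with Si-KDM4C#1 only, and RPL26L1 lies past the right dashed line with both siRNAs.

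Paralogs of the ribosomal protein genes were described beside their members. RPL26L1, a close copy of RPL26 on another chromosome, was at 13.0, 13.6 and 12.7 FPKM in Scramble, 39.3, 35.1 and 37.4 FPKM in Si-KDM4C#1 and 32.8, 35.2 and 35.9 FPKM in Si-KDM4C#2. It rose with both siRNAs past the fold limit (log2 fold changes 1.44 and 1.34, limma adjusted p = 2.66e-08 and 7.65e-08), as RPL26 rose with Si-KDM4C#1, although the near-identical copies may share reads. RPS27L, a p53-responsive copy of RPS27, was at 12.3 ± 0.841 FPKM in Scramble, 13.5 ± 0.659 FPKM in Si-KDM4C#1 and 7.22 ± 0.139 FPKM in Si-KDM4C#2 (SD, n = 3) and fell with Si-KDM4C#2 (log2 fold change -0.69). RPS27 itself fell with Si-KDM4C#2 too (log2 fold change -0.32). RPL39L rose with both siRNAs (0.61 and 0.43), as did RPL22L1 (0.46 and 0.43, the latter lost without Si-KDM4C#2 replicate 3) and RPL7L1 (0.37 and 0.13, the latter lost without Scramble replicate 2, without Si-KDM4C#2 replicate 2, under median-ratio scaling and in limma voom, at 0.070 to 0.10). RPL36AL had log2 fold changes of -0.19 (limma adjusted p = 0.0354, lost without Scramble replicate 1 or 2 or Si-KDM4C#1 replicate 1 or 3, under 2 other scalings, in limma voom and after the GC adjustment, at -0.18 to 0.013) and 0.12. In all, 4 of the 6 paralogs tested rose and 1 fell with each siRNA, a count too small to be read against all genes. RPL3L, the muscle form, stayed under 0.3 FPKM.

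The other TOP mRNAs were described with a list of 27 genes for translation factors and related proteins, and this list did not move in 1 direction. With Si-KDM4C#1, 13 of them rose and 7 fell (median log2 fold change 0.04), and with Si-KDM4C#2, 9 rose and 12 fell (median 0.03), against 31.7% and 33.9%, and 34.4% and 25.0%, of all genes tested. NAP1L1 was at 25.6, 28.0 and 29.9 FPKM in Scramble, 4.16, 4.43 and 4.28 FPKM in Si-KDM4C#1 and 22.0, 24.0 and 23.3 FPKM in Si-KDM4C#2. NPM1 was at 381, 424 and 445 FPKM, 112, 103 and 104 FPKM, and 421, 433 and 439.6 FPKM in the same order of groups. Both were far lower in the Si-KDM4C#1 libraries than in all others, as RPS12 and RPL23A were (log2 fold changes -2.44 and -1.96 with Si-KDM4C#1, -0.26 and 0.05 with Si-KDM4C#2, of which that of NAP1L1 was called and lost after the GC adjustment, at -0.14). EIF3F and SNHG8 rose past the fold limit with both siRNAs, EIF3F with log2 fold changes of 1.41 and 1.03 and SNHG8 with 1.25 and 1.02. EIF3L fell with both (-0.65 and -0.39). RACK1, a scaffold on the head of the small subunit, was at 258 ± 6.01 FPKM in Scramble, 288 ± 7.07 FPKM in Si-KDM4C#1 and 192 ± 4.39 FPKM in Si-KDM4C#2 (SD, n = 3), with both differences called (0.16 and -0.42), the former lost after the GC adjustment (0.062). HNRNPA1 rose with Si-KDM4C#2 (0.56) and had a value of -0.04 with Si-KDM4C#1.

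Several ribosomal proteins are made as fusions with ubiquitin or a ubiquitin-like protein. RPS27A, joined to ubiquitin, was at 239 ± 8.62, 232 ± 3.54 and 237 ± 8.82 FPKM (SD, n = 3) with Scramble, Si-KDM4C#1 and Si-KDM4C#2 and passed in no comparison. FAU, the source of RPS30, rose with both siRNAs (0.68 and 0.23), the latter call lost after the GC adjustment (0.070).

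The genes that control the translation of TOP mRNAs were taken from a list of 16, of which 5 rose and 7 fell with Si-KDM4C#1 and 3 rose and 8 fell with Si-KDM4C#2. Over all genes tested, 31.7% and 33.9% rose and fell with Si-KDM4C#1, near the share of this list, and 34.4% and 25.0% with Si-KDM4C#2. LARP1, which binds the TOP tract, was at 29.8, 28.1 and 28.9 FPKM in Scramble, 57.9, 58.1 and 58.0 FPKM in Si-KDM4C#1 and 44.2, 43.5 and 43.9 FPKM in Si-KDM4C#2. EIF4EBP1, an inhibitor of the cap-binding protein, was at 58.8, 54.6 and 57.8 FPKM, 123, 134 and 126 FPKM, and 38.4, 44.3 and 41.7 FPKM. MTOR was at 13.0, 13.7 and 12.8 FPKM, 6.69, 6.05 and 4.91 FPKM, and 10.7, 11.0 and 11.2 FPKM. In all 3 genes the groups did not overlap: LARP1 rose with both siRNAs, MTOR fell with both, and EIF4EBP1 rose with Si-KDM4C#1 and fell with Si-KDM4C#2. The log2 fold changes were 0.98 and 0.58 for LARP1, -1.05 and -0.24 for MTOR and 1.15 and -0.45 for EIF4EBP1, all called. The weakest call was that of MTOR with Si-KDM4C#2 (limma adjusted p = 0.0321). These 3 genes fall outside the rule for named genes and were picked after their values were seen, and their values in the other fits are not given here. Protein levels and translation were not measured in these files.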

How the data were processed

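Total RNA was sequenced in 9 libraries. The FPKM lists that the authors deposited, one for each library, were the starting point. The submitters' processing notes name FastQC 0.11.5, HISAT2 2.1.0, StringTie 1.3.3b, featureCounts, DESeq 1.28.0 and GRCh38; the annotation release is not given in the sources used here. No scaling between libraries is stated, so FPKM are relative to the total of each library. Exon lengths, coordinates and snoRNAs were taken from GENCODE release 29. Multiplied by exon length and a fitted library total, the values came out as whole fragments (within 0.05) for 32080 genes, 70 of the 77 members among them, which gave the depth.

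The 14363 genes whose mean reached 1 FPKM in any group, all 77 members included, were compared on log2(FPKM + 1) with limma-trend (limma 3.58.1, R 4.3.3), all 9 libraries in 1 fit without covariates, with Benjamini-Hochberg adjustment over all genes. RPL3L, below that mean, came from a fit without the filter. The limits were FDR < 0.05 and, where named, fold change > 2. Libraries of a group were not duplicates: their counts differed beyond sampling noise in all pairs, with chi-square values of 2.57 to 5.94 for each degree of freedom. Python 3.11.15, numpy 2.4.6, pandas 2.3.3 and matplotlib 3.10.9 were used for tables and plots.

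Members, gene lists and tests were chosen with earlier results of these data known. Named genes were the 4 highest and 4 lowest called members per comparison, the 3 highest and 3 lowest by level, genes fixed by role, the paralogs, and the 3 highest and 3 lowest called genes of the TOP list. Alternatives were 3 other scalings (quantile normalization, median-ratio size factors, equal totals of the non-member genes), a pseudocount of 0.1, no filter, the 6 libraries of each comparison, the replicate number as a block, limma voom on recovered fragments (at least 10 in at least 3 libraries), a lowess adjustment for GC content (span 0.3) alone and with the block, an FDR of 0.01, and each library left out in turn. Some genes enter the counts and medians but are not reported here by name.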

Additional observations from a re-analysis of the deposited data

Results flagged for a closer look

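The responses to the siRNAs differed past both limits in the direct comparison for 3 of the 77 ribosomal protein mRNAs. RPS12 exceeded its Si-KDM4C#1 level in Si-KDM4C#2 by 2.71 on the log2 scale (log2 fold changes against Scramble -2.50 and 0.21), RPL23A by 1.73 (-1.73 and 0.01) and RPL3 by 1.06 (-1.36 and -0.30). The levels were lower in all 3 Si-KDM4C#1 libraries than in every other library for each of these genes. Groups of 3 libraries are too small for a test of single outlying libraries.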

How the results depend on the processing

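Scaling moved the balance of rises and falls. With Si-KDM4C#1, quantile normalization gave 33 members higher and 19 lower (48 and 11 in the reported fit), and median-ratio scaling gave 53 and 6. Among all 14363 genes tested, these scalings gave 4727 higher and 4592 lower, and 5174 and 4300 (4560 and 4872 in the reported fit). The median log2 fold change of the members was 0.071 under quantile normalization, 0.27 under median-ratio scaling, 0.23 with equal totals of the other genes and 0.26 in limma voom. That of all genes was -0.0019, 0.031, 0.0042 and -0.014 in the same order. With Si-KDM4C#2, 15 members were higher and 32 lower under quantile normalization, 17 and 30 under median-ratio scaling, 25 and 21 with equal totals and 17 and 33 after the GC adjustment (24 and 29 in the reported fit), and at an FDR under 0.01, 19 were lower. Among all genes these were 4402 and 4149, 4405 and 3991, 5277 and 3197, and 4177 and 4089 (4937 and 3590 in the reported fit). At an FDR under 0.01, 2774 of all genes were lower. The median of the members was -0.10 under median-ratio scaling, 0.000892 with equal totals, -0.071 in limma voom and -0.090 after the GC adjustment without and with the block. That of all genes was 0.014, 0.092, 0.0030 and 0.0018 in the same order. Between the siRNAs, 4 members were higher under median-ratio scaling and 5 each without a filter, in limma voom and after the GC adjustment without and with the block. Among all genes in these fits, 4081, 5379, 4764, 4402 and 4301 were higher (5156 in the reported fit). The median of the members between the siRNAs was -0.22 under quantile normalization, -0.43 under median-ratio scaling and in limma voom, and -0.34 after the GC adjustment without and with the block. That of all genes was 0.0082, -0.021, 0.0076 and -0.0024 in the same order. Median-ratio scaling shifted the median of all genes between the siRNAs by 0.103 on the log2 scale. The cause of these shifts was not tested.

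Leaving out each library in turn kept the counts with Si-KDM4C#1 at 44 to 50 higher, 9 to 11 lower and 7 to 8 past the fold limit (median 0.17 to 0.21). With Si-KDM4C#2 they were 17 to 24, 20 to 30 and 0 to 1 (median -0.05 to -0.03), and between the siRNAs 6 to 9, 52 to 56 and 2 to 3 (median -0.31 to -0.28). Among all genes tested, the counts were 4291 to 4524, 4480 to 4798 and 1195 to 1359 with Si-KDM4C#1. With Si-KDM4C#2 they were 4472 to 4920, 3230 to 3604 and 698 to 762, and between the siRNAs 4697 to 5250, 3501 to 3884 and 941 to 1053.

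Same-numbered libraries did not deviate together (mean correlation 0.0162 over 9 pairs, against -0.00808 over 18 other pairs). With the replicate number as a block, 49 members were higher, 11 lower and 8 past the fold limit with Si-KDM4C#1, 22, 27 and 0 with Si-KDM4C#2, and 8, 56 and 3 between the siRNAs. Among all 14363 genes these were 4538, 4835 and 1273, then 4900, 3563 and 703, and 5141, 3808 and 992.

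Single genes changed sign, with 1 of the fits past the threshold, in 19 cases. The log2 fold changes with Si-KDM4C#1 became -0.014 for RPL10, -0.064 for RPL13A and -0.20 for RPL19 under quantile normalization, and 0.11 for HNRNPA1, 0.013 for RPL36AL and -0.038 for RPS15 after the GC adjustment, and 0.11 for RPS6 after it with the block. Those with Si-KDM4C#2 became -0.13 for RPL10 and -0.030 for RPLP2 after the GC adjustment and -0.00333 for RPL7L1 under quantile normalization. Between the siRNAs they became -0.10 for RPL13A and RPS27A in limma voom, -0.10 for RPS27A and -0.00632 for RPL5 under median-ratio scaling. Over all single genes, 1394 values kept direction and call, 63 newly passed and 78 no longer passed under the alternatives other than left-out libraries, and 1349, 14 and 41 did so with a library left out. RPL26 at 9.08 FPKM and the genes under 10 FPKM rest on the fewest fragments.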
